A study of Mus musculus with 6 samples.

Results

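The genes of the mitotic spindle, of condensin and of cytokinesis described here are 40 mouse genes that build the division apparatus, out of 18193 genes named on the array by a single gene symbol. They were chosen by their known roles, but with earlier results of these data known, so shares among them are descriptive. All 40 were found by symbol in the platform's annotation. Where a gene had several probe sets, the brightest by mean log2(signal + 16) over all 6 arrays stands for it, where 16 is a pseudocount that damps noise at low signal. RNA came from pancreatic islets, small groups of endocrine cells scattered through the exocrine pancreas, which were freed with collagenase. Islets of pregnant mice, taken at 12.5 days post coitum (dpc), gave 3 Affymetrix arrays, and islets of non-pregnant mice, labelled 0 dpc, gave 3 more. The stated purpose was to find factors behind islet proliferation in pregnancy. Strain, age, parity and the number of mice behind each array are not given in the labels, and no genetic change or drug is named for either group. Whether replicate arrays stand for different animals is not stated, so the p-values reflect array-to-array spread that may be technical.

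The spindle is the array of microtubules that pulls sister chromatids apart. Kinesin motors slide, crosslink or shorten its microtubules, and other proteins nucleate and focus them. Condensin, a ring of SMC ATPases with kleisin and HEAT subunits, folds chromatin into compact chromosomes, while topoisomerase II alpha untangles the DNA. After the chromatids part, the centralspindlin complex recruits the RhoA activator Ect2, a contractile ring closes, and the midbody is cut. Most of these genes are transcribed in the G2 and M phases of the cell cycle, and beta cells of mouse islets divide more often in pregnancy than outside it.

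Promoters of G2/M genes are known to carry the cell cycle genes homology region, abbreviated CHR, often beside CCAAT boxes. The 250 bases upstream of the annotated transcript start were available from RefSeq (build GRCm38.p6) for 36 of the 40 genes, in 39 windows. Tpx2, Smc4, Dlgap5 and Kif20a had no entry in the table. Windows were searched on both strands for the CHR letters TTTGAA and for the CCAAT box letters CCAAT, and 0 matches in the member genes overlapped one another. The 6 windows shown are those of the members with the smallest p-values in the comparison of pregnant and non-pregnant islets that had an entry. They are written 5′ to 3′ in the direction of the gene, in lower case, with the matched letters in capitals. TTCAAA and ATTGG are the same motifs read on the opposite strand.
Ncapg2, chr12:116405186-116405435, plus strand: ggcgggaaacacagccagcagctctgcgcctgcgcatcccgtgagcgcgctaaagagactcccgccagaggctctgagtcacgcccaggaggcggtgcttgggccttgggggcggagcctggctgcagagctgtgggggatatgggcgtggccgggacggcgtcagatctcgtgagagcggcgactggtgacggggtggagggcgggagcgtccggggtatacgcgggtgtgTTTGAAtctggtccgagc
Top2a, chr11:99024190-99024439, minus strand: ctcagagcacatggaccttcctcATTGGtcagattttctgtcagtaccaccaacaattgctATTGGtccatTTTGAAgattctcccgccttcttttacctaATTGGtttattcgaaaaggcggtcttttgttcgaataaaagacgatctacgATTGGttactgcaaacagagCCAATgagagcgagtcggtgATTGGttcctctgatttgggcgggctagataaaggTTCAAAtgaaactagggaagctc
Hmmr, chr11:40733438-40733687, minus strand: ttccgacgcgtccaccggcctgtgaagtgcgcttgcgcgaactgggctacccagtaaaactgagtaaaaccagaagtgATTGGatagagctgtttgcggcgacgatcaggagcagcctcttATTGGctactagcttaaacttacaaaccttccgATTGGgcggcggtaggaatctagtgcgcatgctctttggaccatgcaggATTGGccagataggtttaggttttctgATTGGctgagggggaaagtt
Racgap1, chr15:99651657-99651906, minus strand: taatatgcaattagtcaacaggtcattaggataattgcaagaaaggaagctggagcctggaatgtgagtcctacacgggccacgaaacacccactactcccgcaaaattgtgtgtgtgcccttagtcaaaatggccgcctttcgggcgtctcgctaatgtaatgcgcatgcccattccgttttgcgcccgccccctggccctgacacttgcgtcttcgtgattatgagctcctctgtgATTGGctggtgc
Nusap1, chr2:119618048-119618297, plus strand: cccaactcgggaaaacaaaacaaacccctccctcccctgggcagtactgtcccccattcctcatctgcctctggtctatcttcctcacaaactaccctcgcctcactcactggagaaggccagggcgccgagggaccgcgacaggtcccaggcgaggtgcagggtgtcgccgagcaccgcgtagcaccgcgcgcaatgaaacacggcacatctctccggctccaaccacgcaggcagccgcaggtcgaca
Ect2, chr3:27153855-27154104, minus strand: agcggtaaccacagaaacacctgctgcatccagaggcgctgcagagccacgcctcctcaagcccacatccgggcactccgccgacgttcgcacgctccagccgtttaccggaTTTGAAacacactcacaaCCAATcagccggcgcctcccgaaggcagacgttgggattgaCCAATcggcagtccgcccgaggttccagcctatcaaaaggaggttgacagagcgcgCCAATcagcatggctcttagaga

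The window of Ncapg2 held a CHR match 18 bases before the start and no CCAAT match. That of Top2a held CHR matches 23 and 179 bases before the start among 6 CCAAT matches. Hmmr had 5 CCAAT matches and Racgap1 had 1, at 12 bases, with no CHR match in either window. Ect2 had a CHR match at 138 bases and 3 CCAAT matches in the window shown, and its other annotated start lies 24 bases away. Nusap1 held neither motif.

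Of the 36 member genes with an entry, 18 (50%) held the CHR letters in these windows, against 12.6% of tested genes and 18.3% of all genes with an entry. The CCAAT letters stood in 23 member genes (63.9%), against 40.1% of tested genes and 37.5% of all genes. Both motifs stood in 14 (38.9%), against 4.49% of tested genes and 6.45% of all genes. A CHR match within 50 bases of the start was present in 12 (33.3%), against 1.83% of tested genes and 3.09% of all genes. Of the 12 genes that rose in pregnancy and had an entry, 5 (41.7%) held the CHR letters and 6 (50%) the CCAAT letters. Of the other 24 members, 13 (54.2%) held the CHR letters and 17 (70.8%) the CCAAT letters. These letter matches describe the windows, and binding was not measured.

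**Figure D1:**
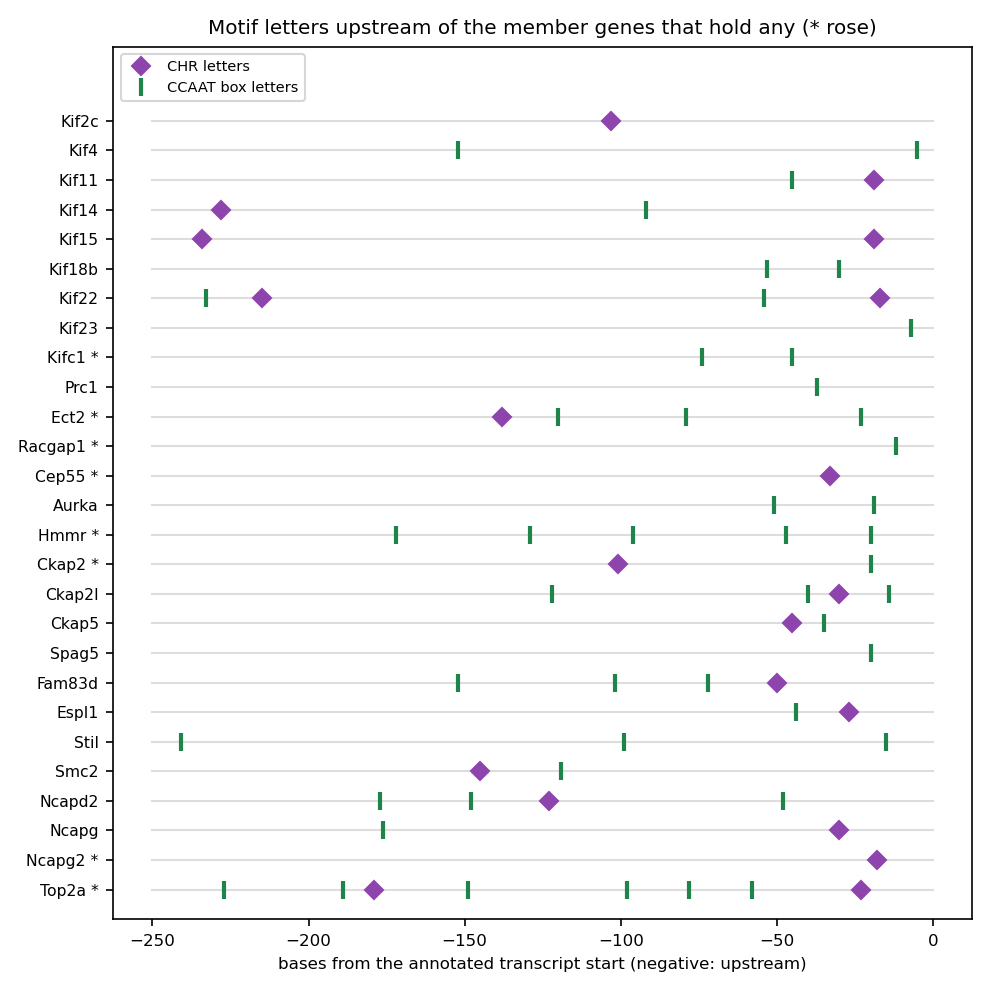
Positions of the CHR letters (diamonds) and the CCAAT box letters (bars) in the 250 bases before the annotated start, with distance in bases along the horizontal axis and 1 row for each member gene that holds either motif; a star marks genes that rose in pregnancy. Each gene is drawn with 1 window; CHR matches lie within 50 bases of the start in Ncapg2 and Top2a, and genes with and without a star hold both motifs.

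Spindle, condensin and cytokinesis genes were higher in islets of pregnant mice. In limma's moderated test with Benjamini-Hochberg adjustment over 27022 tested probe sets, 14 of the 34 members bright enough to be tested rose and 0 fell. Over all 12914 tested genes, 6.1% rose and 5.79% fell. At an unadjusted p under 0.05 in the same test, 23 of the 34 were higher and 0 lower, against 12.2% higher and 15% lower over all tested genes. The median log2 difference, pregnant minus non-pregnant on the log2(signal + 16) scale, was 0.64 over the tested members, against -0.04 over all tested genes. In 22 of the 34, all 3 pregnant arrays lay above all 3 non-pregnant arrays, which was so for 13.9% of all tested genes. The reverse was seen in 1 member, Cit, against 17.9% of all tested genes.

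The 14 genes that rose were the motor gene Kifc1, the cytokinesis genes Anln, Ect2, Racgap1 and Cep55, the spindle genes Tpx2, Nusap1, Hmmr and Ckap2, the centriole kinase gene Plk4, and Smc4, Ncapg2, Ncaph and Top2a of condensin and topoisomerase. Their log2 differences ran between 0.38 and 1.66, and the ratios of mean signals between 1.30 and 3.26. In bulk islets, fewer cells of a type and less RNA per cell cannot be told apart, and the same holds for more of either. Without the trend of variance on signal in limma's fit, 5 members rose, namely Anln, Racgap1, Tpx2, Hmmr and Ncapg2. With all probe sets of a gene averaged, 9 rose, of which 7 were among the 14, and Anln, Racgap1, Cep55, Nusap1, Ckap2, Plk4 and Top2a lost their call. Leaving out pregnant replicate 2 left 7 and leaving out pregnant replicate 3 left 9.

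**Figure D2:**
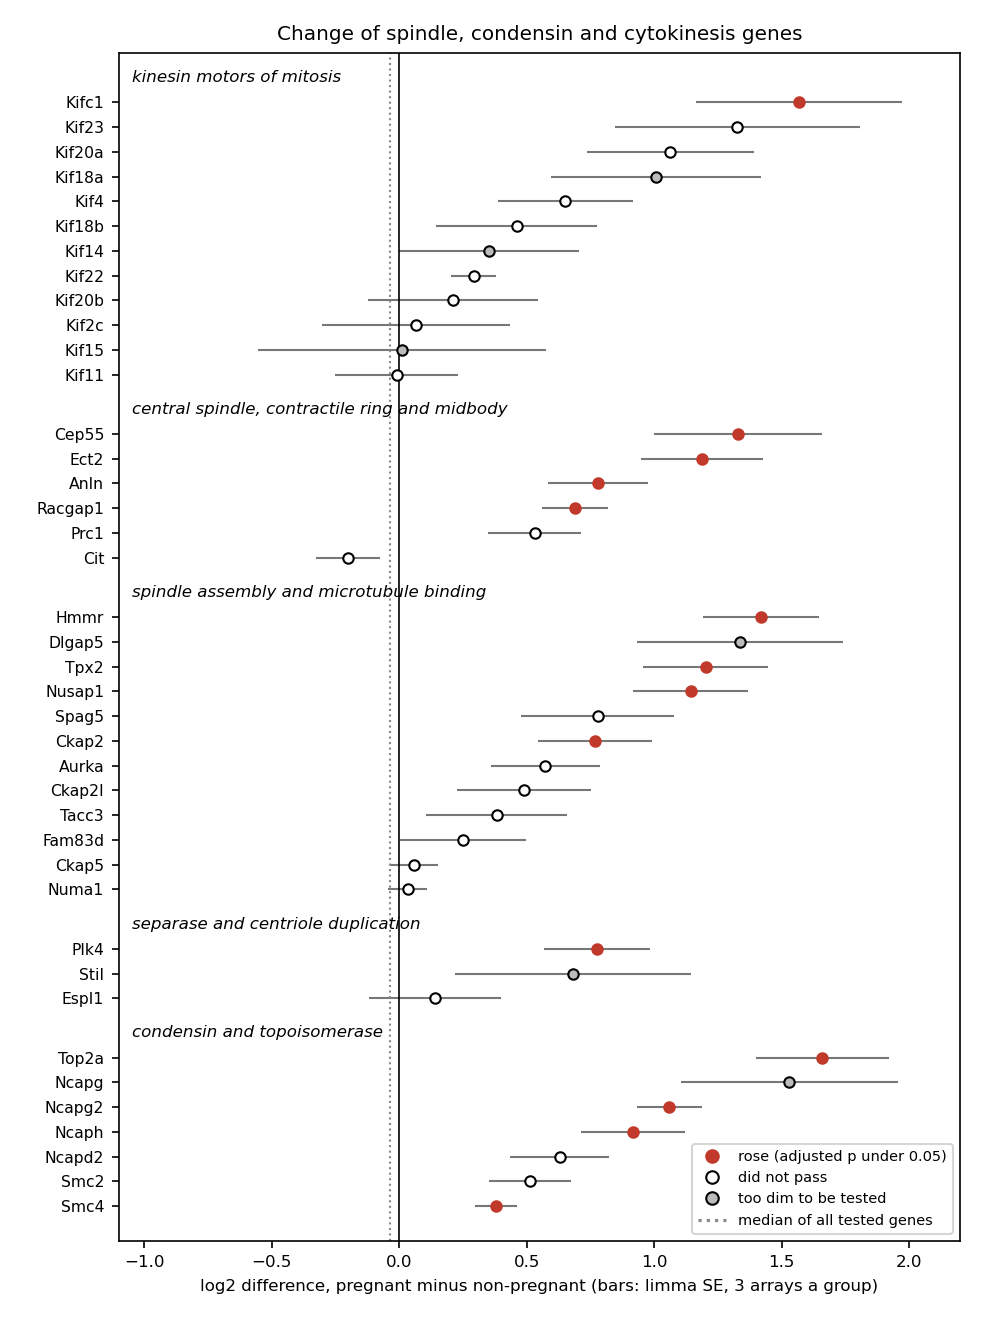
Log2 difference of each of the 40 genes, pregnant minus non-pregnant on the log2(signal + 16) scale, with limma's standard error as the bar, grouped by role; red points rose, open points did not pass and grey points were too dim to be tested. The dotted line is the median of all tested genes, -0.04, and every red point lies right of it, between 0.38 and 1.66.

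Condensin and topoisomerase genes had a median log2 difference of 0.77, and 4 of 6 tested members rose, against 6.1% of all tested genes. In all 6 the pregnant arrays lay above the non-pregnant ones, which was so for 13.9% of all tested genes. Ncapg2, a HEAT subunit of condensin II, had signals of 453.9, 469.2 and 474.8 on the pregnant arrays and of 200.9, 223.5 and 222.4 on the non-pregnant arrays. The 2 groups were far apart and each was narrow. Its log2 difference was 1.06 ± 0.13 (limma SE, n = 3 arrays a group; limma adjusted p = 0.00027), and it passed the threshold under all 18 alternative settings, with a largest adjusted p of 0.0495. Ncaph, the kleisin of condensin I, had signals of 268.7, 377.7 and 352.6 on pregnant arrays and of 198.5, 120.4 and 194.1 on non-pregnant arrays. The groups did not overlap, with non-pregnant replicate 2 the lowest. Its log2 difference was 0.92 ± 0.20 (limma adjusted p = 0.015), and its other tested probe set also rose, by 1.47 (limma adjusted p = 0.0085). Leaving out pregnant replicate 2 or 3 ended its call (limma adjusted p = 0.070 and 0.058).

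Top2a, which encodes topoisomerase II alpha, had signals of 398.1, 667.5 and 627.7 in pregnant islets and of 135, 121.3 and 263 in non-pregnant islets. Pregnant replicate 1 was the lowest pregnant array and non-pregnant replicate 3 the highest non-pregnant one, and the groups stayed apart. Its log2 difference was 1.66 ± 0.26 (limma adjusted p = 0.0018). Its other probe sets, too dim to be tested, gave differences of -0.18 and 0.76, and with all 3 averaged the difference was 0.75 and did not pass (limma adjusted p = 0.085). Smc4, an ATPase shared by condensin I and condensin II, had signals of 1938.5, 2087.6 and 1949.5 on pregnant arrays and of 1403.3, 1658.9 and 1526.9 on non-pregnant arrays. Its log2 difference was 0.38 ± 0.08 (limma adjusted p = 0.012), a smaller change on bright, narrow signals. Without pregnant replicate 2 its adjusted p was 0.059. Its other tested probe sets gave differences of 0.36 and 0.29 that did not pass.

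Smc2, the partner ATPase of Smc4, had 282.5, 330.6 and 395.7 on pregnant arrays and 198.6, 248.7 and 242.2 on non-pregnant arrays. Ncapd2, a HEAT subunit of condensin I, had 196.9, 249.4 and 320.1 on pregnant arrays and 146.2, 148.9 and 175.8 on non-pregnant arrays. Neither gene's groups overlapped, and neither passed the threshold, with log2 differences of 0.51 (limma adjusted p = 0.072) and 0.63 (limma adjusted p = 0.065). Both passed after quantile normalization and with each array centred on its median. Ncapd2 also passed with the top 40% filter and without pregnant replicate 1. Ncapg, the remaining HEAT subunit of condensin I, was too dim to be tested, with signals of 108.8, 78.3 and 91.4 on pregnant arrays and of 32.9, 4.3 and 37 on non-pregnant arrays. With a pseudocount of 64, or without non-pregnant replicate 1, it passed the filter and rose in limma.

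Of the central spindle, contractile ring and midbody genes, 4 of 6 rose, against 6.1% of all tested genes. Their median log2 difference was 0.73. Ect2, which activates RhoA at the cell equator, had signals of 169.8, 314.5 and 199.8 on pregnant arrays and of 91.7, 75.2 and 98.6 on non-pregnant arrays. The pregnant arrays were all higher, and pregnant replicate 2 stood above its fellows. The log2 difference was 1.19 ± 0.24 (limma adjusted p = 0.0084). Racgap1, the GTPase-activating subunit of centralspindlin, had signals of 467.6, 510 and 542.6 in pregnant islets and of 269.3, 328.1 and 329.1 in non-pregnant islets. Both groups were narrow and apart, with a log2 difference of 0.69 ± 0.13 (limma adjusted p = 0.0054). A second Racgap1 probe set also rose, by 0.49 (limma adjusted p = 0.047), while the remaining one, too dim to be tested, gave -0.11. With all 3 averaged, Racgap1 had a difference of 0.36 and did not pass (limma adjusted p = 0.22).

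Anln encodes anillin, which ties actin, myosin and septins together in the contractile ring. Its signals were 160.4, 186.4 and 181.1 on pregnant arrays and 100.3, 89.2 and 97.6 on non-pregnant arrays, with no overlap and a log2 difference of 0.78 ± 0.20 (limma adjusted p = 0.026). Cep55, which brings the abscission machinery to the midbody, had signals of 78.6, 197.5 and 136.5 on pregnant arrays and of 40.5, 33.8 and 53 on non-pregnant arrays. The pregnant arrays were widely spread but all higher, with a log2 difference of 1.33 ± 0.33 (limma adjusted p = 0.025). With each array left out in turn, Anln passed in 1 of 6 fits, without non-pregnant replicate 1, and had a largest limma adjusted p of 0.098. Cep55 passed in 2 of 6, without pregnant replicate 1 or non-pregnant replicate 3, with a largest limma adjusted p of 0.13. With its dim second probe set averaged in, Cep55 had a difference of 0.59 (limma adjusted p = 0.23).

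Prc1, which bundles antiparallel microtubules of the central spindle, had 295.1, 326.4 and 361.4 on pregnant arrays and 190.8, 189.6 and 297.9 on non-pregnant arrays. Non-pregnant replicate 3 reached into the pregnant range, and the log2 difference of 0.53 ± 0.18 did not pass (limma adjusted p = 0.097). A second tested Prc1 probe set gave 0.51 without overlap of the groups, and did not pass either (limma adjusted p = 0.099). Cit encodes citron kinase of the midbody, and by the brightest probe sets was the member with the pregnant arrays below the non-pregnant ones. It had 333.1, 311.8 and 341.4 on pregnant arrays and 348.1, 394.2 and 401.3 on non-pregnant arrays, a log2 difference of -0.20 ± 0.12 (limma adjusted p = 0.38). Its 3 other tested probe sets gave positive differences of 0.24, 0.48 and 0.29, of which none passed in limma. Of all 58 tested member probe sets in the same fit, 18 rose and 0 fell, while 9.57% of all tested probe sets were called, 4.79% as higher and 4.78% as lower.

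**Figure D3:**
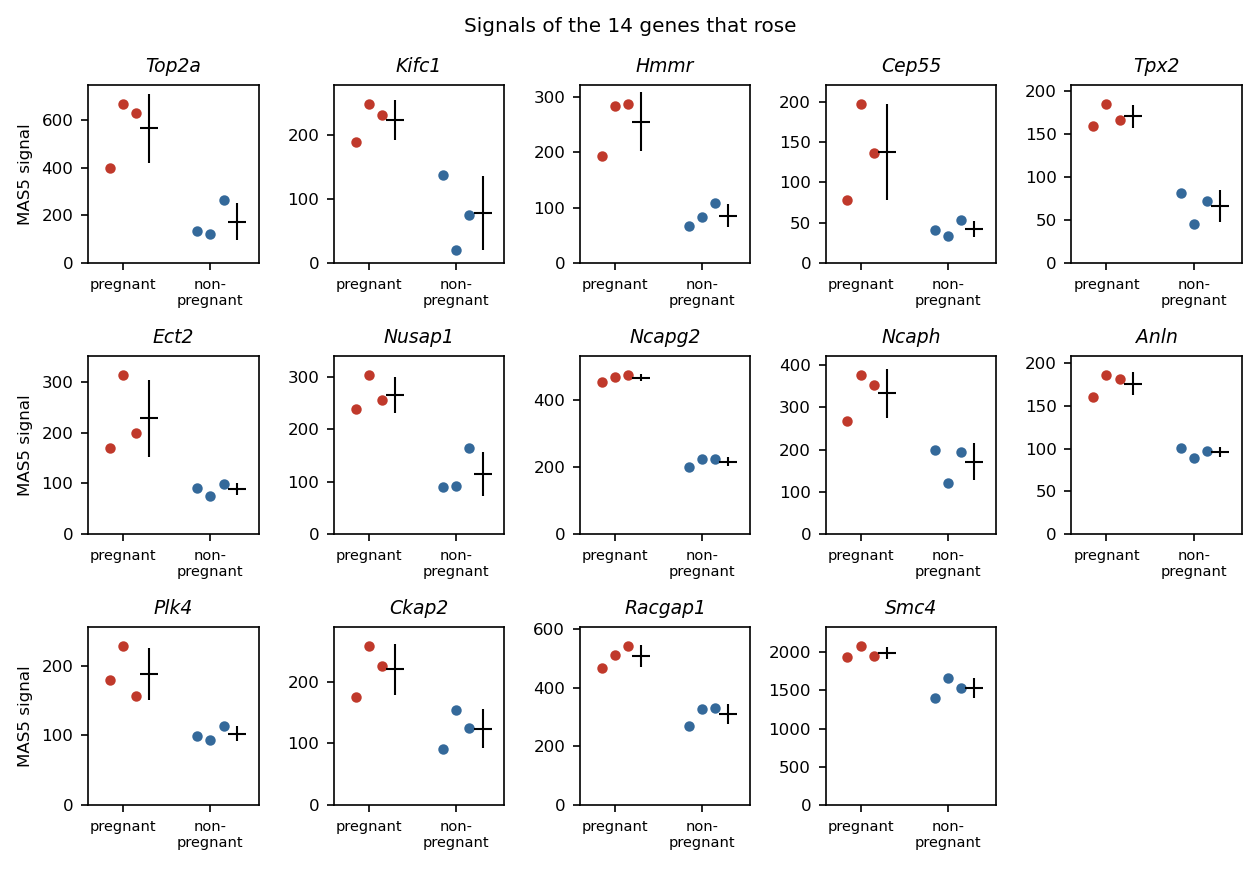
MAS5 signal (linear scale from 0) of the 14 genes that rose, in order of their log2 difference; points are single arrays, 3 pregnant (red) and 3 non-pregnant (blue), and the black mark beside them is the mean with its standard deviation. In every panel the 3 red points lie above the 3 blue points; Ncapg2 and Racgap1 have narrow groups, Cep55 a wide pregnant group and Kifc1 a wide non-pregnant one.

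Among the genes of spindle assembly and microtubule binding, 4 of 11 tested members rose, against 6.1% of all tested genes. The median log2 difference was 0.57. Hmmr, which encodes the hyaluronan-mediated motility receptor, a protein that also focuses spindle poles, had signals of 194.4, 284.9 and 288.4 on pregnant arrays and of 66.3, 83.4 and 107.7 on non-pregnant arrays. No pregnant array came near a non-pregnant one, and the log2 difference was 1.42 ± 0.23 (limma adjusted p = 0.0021). A second probe set of Hmmr rose by 1.10 (limma adjusted p = 0.023), and its other tested probe sets gave 1.14 (limma adjusted p = 0.058) and 0.29 (limma adjusted p = 0.73), which did not pass. Tpx2 activates Aurora A and nucleates microtubules around chromosomes. Its signals were 159.4, 184.9 and 166.2 in pregnant islets and 81.5, 45.4 and 72.3 in non-pregnant islets, groups that did not overlap, with a log2 difference of 1.20 ± 0.24 (limma adjusted p = 0.0086).

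Nusap1, which bundles microtubules near chromosomes, had signals of 238.5, 304.1 and 254.9 on pregnant arrays and of 90.3, 91.3 and 163.8 on non-pregnant arrays. Non-pregnant replicate 3 was the highest of its group and still below every pregnant array. The log2 difference was 1.14 ± 0.23 (limma adjusted p = 0.0076). A second Nusap1 probe set, too dim to be tested, went the other way with a difference of -0.95, and the mean over both probe sets gave 0.10. Ckap2, a microtubule-stabilising spindle protein, had signals of 175.5, 258.4 and 225.7 on pregnant arrays and of 90.9, 154.6 and 125.1 on non-pregnant arrays. Its groups did not overlap, but its log2 difference of 0.77 ± 0.22 lay just inside the threshold (limma adjusted p = 0.0497), and of the 6 fits with an array left out it passed only without non-pregnant replicate 2.

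The other 7 tested spindle genes did not pass. Aurka, the gene of the Aurora A kinase that Tpx2 activates, had 150.3, 190.5 and 240.2 on pregnant arrays and 102.1, 137.8 and 131.1 on non-pregnant arrays. Spag5, which encodes astrin of the kinetochore fibres, had 83.4, 81.8 and 88.8 on pregnant arrays and 59.5, 35.5 and 35.9 on non-pregnant arrays. In both genes the groups did not overlap, with log2 differences of 0.57 (limma adjusted p = 0.13) and 0.78 (limma adjusted p = 0.14). Ckap2l, a paralogue of Ckap2, had a difference of 0.49 (limma adjusted p = 0.30) on the probe set used here, while its dimmer tested probe set rose by 1.02 (limma adjusted p = 0.032). Tacc3, which crosslinks kinetochore fibres, and Fam83d, which anchors casein kinase to the spindle, had differences of 0.38 and 0.25 with overlapping groups.

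Ckap5, a microtubule polymerase, and Numa1, which anchors dynein at spindle poles, stood near 0 with narrow errors. Ckap5 had 1081.3, 1092.7 and 980.8 on pregnant arrays and 953.4, 1119.1 and 961 on non-pregnant arrays, a log2 difference of 0.06 ± 0.09. Numa1 had 1772.1, 1674.6 and 1888.3 on pregnant arrays and 1699.4, 1698.3 and 1811.9 on non-pregnant arrays, a difference of 0.03 ± 0.08. A second tested Numa1 probe set, with mean signals of 1105.3 on pregnant and 1256.8 on non-pregnant arrays, gave -0.18. Its pregnant arrays all lay below the non-pregnant ones, and it did not pass (limma adjusted p = 0.22). A dimmer one, with mean signals of 68.5 and 58.5, gave 0.18 and did not pass (limma adjusted p = 0.79). Dlgap5, which stabilises kinetochore fibres, was too dim to be tested, with 42.5, 98.9 and 34 on pregnant arrays and 13, 5.9 and 16.9 on non-pregnant arrays.

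Among kinesin motors, 1 of 9 tested members rose, against 6.1% of all tested genes, and the median log2 difference was 0.46. Kifc1, a minus-end-directed motor that focuses spindle poles, had signals of 188.6, 248.8 and 231 on pregnant arrays and of 136.9, 20.9 and 75.1 on non-pregnant arrays. The groups did not overlap, but the non-pregnant signals were widely spread. The log2 difference was 1.57 ± 0.40 (limma adjusted p = 0.030), and of the 6 fits with an array left out it passed without non-pregnant replicate 1 or 2 and in no other. Kif23, the motor subunit of centralspindlin, also had its lowest signal on non-pregnant replicate 2, with 101.4, 180 and 118.1 on pregnant arrays and 85.6, 7.1 and 67.4 on non-pregnant arrays. Its log2 difference of 1.33 ± 0.48 did not pass (limma adjusted p = 0.11).

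Kif20a, which carries the Aurora B complex to the central spindle, had 92.4, 130.7 and 88.6 on pregnant arrays and 27.9, 33.8 and 67.5 on non-pregnant arrays. Kif22, a motor that pushes chromosome arms outward, had 1432.2, 1517.7 and 1615.2 on pregnant arrays and 1218.9, 1150.4 and 1355.5 on non-pregnant arrays. Kif4, a chromosome-bound motor that also acts on the central spindle, had 94.6, 109.9 and 105.4 on pregnant arrays and 56.6, 76.6 and 48.9 on non-pregnant arrays. In these 3 genes all pregnant arrays were higher, but the log2 differences of 1.06 (limma adjusted p = 0.065), 0.29 (limma adjusted p = 0.058) and 0.65 (limma adjusted p = 0.16) did not pass. A second tested Kif22 probe set was much dimmer, with mean signals of 120.4 on pregnant and 103 on non-pregnant arrays. Its groups overlapped, with a difference of 0.21 (limma adjusted p = 0.70). Another, too dim to be tested, gave -0.13.

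The groups overlapped in the remaining tested motors. Kif18b, which trims astral microtubules, had a difference of 0.46, Kif20b, a motor of cytokinesis, 0.21, and Kif2c, which depolymerises microtubules at centromeres, 0.07. A second tested probe set of Kif2c gave 0.90, also with overlapping groups, and did not pass (limma adjusted p = 0.15). Kif11, the motor that slides spindle poles apart, had 81.1, 90.7 and 91.1 on pregnant arrays and 80.2, 101.7 and 84.2 on non-pregnant arrays, a log2 difference of -0.01 ± 0.24. Its other tested probe sets gave 1.02 (limma adjusted p = 0.071) and 0.80 (limma adjusted p = 0.12), so the gene's probe sets did not give the same result. For 15 members with several tested probe sets, 12 had the same sign in all of them. The motors Kif14, Kif15 and Kif18a were too dim to be tested. Kif18a, which damps chromosome movements at the metaphase plate, had 74.7, 66.6 and 83.8 on pregnant arrays and 15.5, 64.6 and 20.3 on non-pregnant arrays. Kif14, which acts with citron kinase at the midbody, and Kif15, which helps to hold the poles apart, had differences of 0.35 and 0.01 with overlapping groups.

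Plk4, the kinase that starts centriole duplication, had signals of 179.2, 229.1 and 156.9 on pregnant arrays and of 99.5, 93.9 and 114.1 on non-pregnant arrays. The groups did not overlap, and the log2 difference was 0.77 ± 0.21 (limma adjusted p = 0.036), but of the 6 fits with an array left out it passed only without pregnant replicate 3. Its other tested probe sets gave 0.51 and 0.48 and did not pass. Espl1, the gene of separase, the protease that frees sister chromatids, had overlapping groups and a difference of 0.14. Stil, a partner of Plk4 in centriole assembly, was too dim to be tested, with 69.1, 51.6 and 67.2 on pregnant arrays and 59.7, 7.3 and 49.8 on non-pregnant arrays.

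The filter on low signals, equal to a signal of about 50.5, left 6 of the 40 members untested, with log2 differences between 0.01 and 1.53. In 3 of them all pregnant arrays were higher. That was so for 13.9% of all tested genes, and the share among dim genes was not taken. With no filter, the median log2 difference over all 40 was 0.67 and 9 rose, of which all 9 were among the 14. In that fit 1013 of 45037 probe sets rose, and the smallest limma adjusted p of the 6 dim genes was 0.081. Kif20a, Kif23, Cep55 and Spag5 passed the filter through their pregnant arrays alone. Of the other 30 tested members, 13 rose, against 6.1% of all tested genes, and their median was 0.55. The probe sets of Kifc1, Plk4, Ncaph, Kif22, Prc1, Spag5, Cit and Numa1 are of the _s_at or _x_at kind, which can bind other transcripts too, so their values are less certain.

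**Figure D4:**
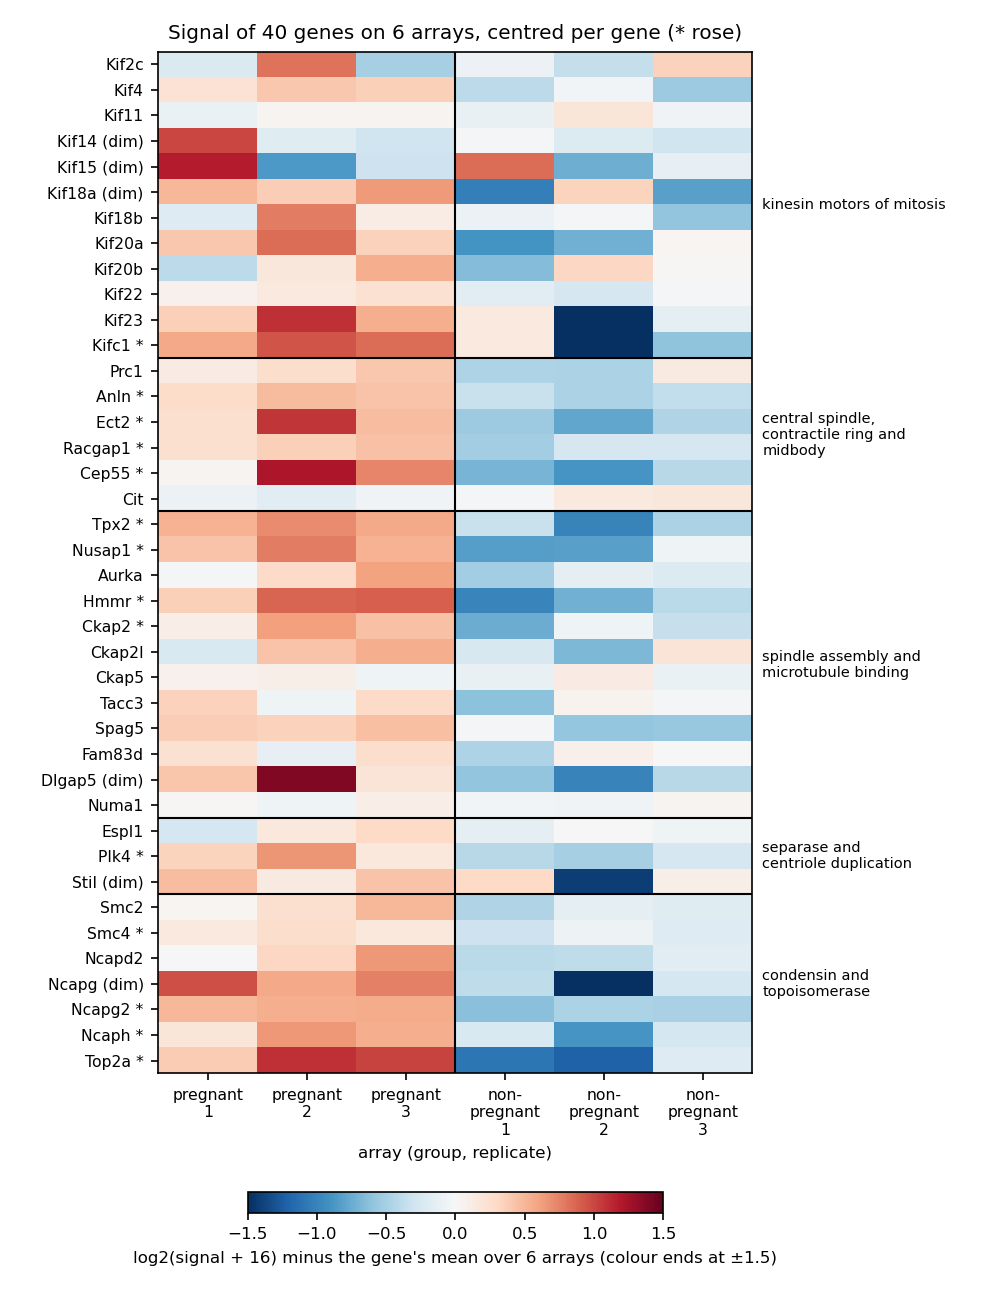
Log2(signal + 16) of each gene on each array minus the gene's mean over the 6 arrays, pregnant arrays left and non-pregnant arrays right of the line, red above and blue below the mean; a star marks genes that rose and (dim) those too dim to be tested. Pregnant replicate 1 is paler than pregnant replicates 2 and 3 in most rows, and dark cells on non-pregnant replicate 2 mark Kif23, Kifc1 and Ncapg.

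The arrays of a group differed in how far the genes stood from their means. The median centred log2 level over the members was 0.16, 0.42 and 0.44 on pregnant arrays 1 to 3, and -0.40, -0.37 and -0.18 on the non-pregnant arrays. Pregnant replicate 1 was the lowest pregnant array in 25 of 34 tested members (73.5%), against 33.5% of all tested genes. Non-pregnant replicate 3 was the lowest non-pregnant array in 2 of 34 (5.88%), against 32% of all tested genes. It was the highest in 15 (44.1%), against 33.3% of all tested genes. Non-pregnant replicate 2 was the highest in 13 (38.2%), against 33.4%. The arrays nearest to the other group were thus pregnant replicate 1 and non-pregnant replicate 3.

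Markers of acinar cells, the enzyme-secreting cells around the islets, differed between the groups in the opposite direction. Of 20 tested acinar markers, 17 fell in pregnant islets and 0 rose, with a median log2 difference of -1.11. Over all tested genes, 5.79% fell. The summed signal of 21 acinar markers was 124181, 153186 and 202785 on pregnant arrays and 403380, 213071 and 402289 on non-pregnant arrays, and no acinar marker was at 0. Their centred medians were -0.89, -0.61 and -0.22 on pregnant arrays and 0.89, -0.12 and 0.93 on non-pregnant arrays. With the acinar median as a covariate, 5 members rose in limma, of which 4 were among the 14, Kifc1, Ncapg2, Ncaph and Top2a, and Kif23 was the other. The median member difference was 0.75 in that fit. Because the acinar medians of the 2 groups did not overlap, the fit cannot cleanly separate acinar content from pregnancy. The part of acinar RNA in the other results was not tested.

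Of 10 stellate and fibroblast markers, 3 fell, against 5.79% of all tested genes, and 0 rose, with a median of -0.58. Beta cell markers, which define the labelled tissue, were bright in both groups, such as Iapp with 51107.1, 50407.8 and 49982.7 on pregnant arrays and 51080.1, 51190.8 and 47043.5 on non-pregnant arrays. Their median log2 difference was 0.04, with 1 of 10 up and 2 down. Pcsk1 rose by 0.94 (limma adjusted p = 6.0e-06). Slc2a2 and Slc30a8 fell, with differences of -0.25 (limma adjusted p = 0.0063) and -0.29 (limma adjusted p = 0.010). Endothelial markers had a median of -0.16 and macrophage and lymphocyte markers of 0.00, with 1 of 10 lower and 1 of 9 higher past the threshold. Of 4 tested duct markers, 1 rose and 1 fell. The 3′ to 5′ signal ratio of the actin controls, a measure of RNA integrity, was 1.66, 1.63 and 1.66 on pregnant arrays and 1.56, 1.63 and 1.57 on non-pregnant arrays. That of the Gapdh controls was 0.73, 0.69 and 0.69 on pregnant arrays and 0.67, 0.70 and 0.71 on non-pregnant arrays.

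**Figure D5:**
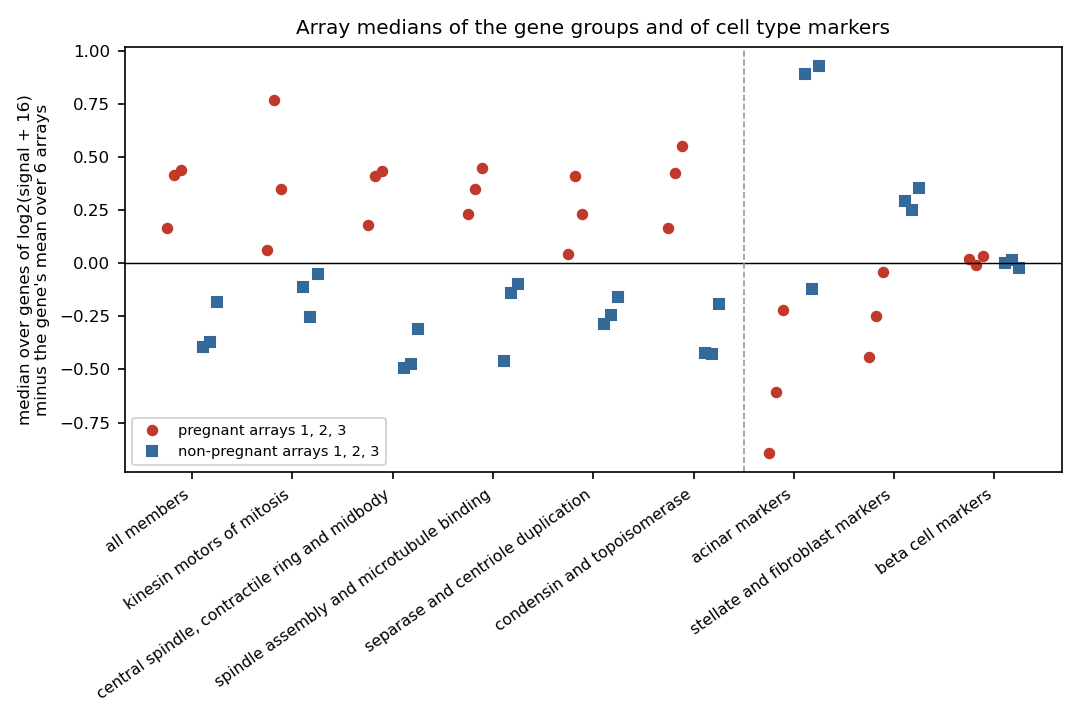
Median over the genes of each group of log2(signal + 16) minus the gene's mean over 6 arrays, for pregnant arrays (circles) and non-pregnant arrays (squares), replicates 1 to 3 from left to right. Over all members, the pregnant medians lie between 0.16 and 0.44 and the non-pregnant ones between -0.40 and -0.18, while acinar marker medians lie the other way round and beta cell marker medians stay near 0.

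Mki67, a general marker of dividing cells, had signals of 557.8, 691.7 and 776.8 on pregnant arrays and of 186.6, 235.6 and 191 on non-pregnant arrays. The groups were far apart, with a log2 difference of 1.64 ± 0.15 (limma adjusted p = 3.7e-05).

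Related genes of motors, cohesin, centrosomes, tubulins and abscission, some of which also act in division, were counted in the same fit. Over 6 lists of such genes, 5 of 101 tested genes rose and 9 fell, with a median log2 difference of -0.07. Over all tested genes 6.1% rose and 5.79% fell, so these shares lie near the background, and the difference from the 40 genes above was not tested. With each array centred on its median, 4 of the 101 rose and 2 fell, and the median was 0.00. Without the variance trend, 1 of them rose and the 9 that fell did not pass. Of 18 transport kinesin genes, 0 rose and 3 fell in limma, the motor genes Kif13b, Kif5c and Kif21a, with log2 differences of -0.36, -0.30 and -0.22. All 3 lost the call with each array centred on its median.

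Of 14 genes of cohesin, the ring that holds sister chromatids together, and its regulators, 1 rose and 3 fell. The riser was Cdca5, the gene of sororin, which protects cohesion until anaphase. It had 194.8, 269.5 and 215.8 on pregnant arrays and 67.7, 77.1 and 81.8 on non-pregnant arrays, well apart, with a log2 difference of 1.40 ± 0.21 (limma adjusted p = 0.0012). The kleisin Rad21, the loader Nipbl and the release factor Pds5b had differences of -0.29, -0.41 and -0.42. With each array centred on its median, Rad21 (limma adjusted p = 0.17) and Pds5b (limma adjusted p = 0.14) lost their calls. With probe sets averaged, Nipbl had a difference of -0.13 (limma adjusted p = 0.51) and no cohesin gene passed as lower, which was also so with the acinar covariate and without the variance trend.

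Of 8 other condensin and SMC genes, 0 rose and 1 fell in limma, Smc6 of the SMC5/6 repair complex, with a difference of -0.45 (limma adjusted p = 0.0086). The condensin II subunits Ncapd3 and Ncaph2 and the second topoisomerase II gene Top2b, named here after their values were seen, had differences of -0.16, -0.00 and -0.20 that did not pass. Ncapg2 was thus the condensin II subunit that rose among the 3 specific to that complex on this array, and Top2a the topoisomerase II gene of the pair; the difference between such genes was not tested. Ncaph2 turned to a positive 0.02 after quantile normalization and 0.07 after median centring.

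Of 26 genes of the centrosome, gamma-tubulin and augmin, 1 rose and 0 fell. That gene was Tubg1, of gamma-tubulin, with 784.7, 727.1 and 706.6 on pregnant arrays and 521.1, 439.6 and 571.2 on non-pregnant arrays, a log2 difference of 0.53 ± 0.12 (limma adjusted p = 0.014; 0.068 without pregnant replicate 1). Of 16 tubulin and microtubule stability genes, 3 rose and 2 fell. Stmn1, the gene of the tubulin-sequestering protein stathmin, had 2070.1, 2961 and 2581.9 on pregnant arrays and 1454.7, 1205.4 and 1504.4 on non-pregnant arrays. The groups did not overlap, with a log2 difference of 0.85 ± 0.12 (limma adjusted p = 0.0010). The tubulin genes Tubb5 and Tuba4a rose by 0.30 and 0.20, and Tuba4a lost its call after quantile normalization (limma adjusted p = 0.074) and after median centring (limma adjusted p = 0.053). Tubb6, a further tubulin gene, and Mapre2, of a microtubule plus-end binding protein, had differences of -0.55 and -0.26, and both lost the call with each array centred on its median. Of 19 genes of RhoA, septins, myosin and abscission, 0 rose and 0 fell in limma, and their median was -0.01.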

How the data were processed

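Islet RNA from 3 pregnant and 3 non-pregnant arrays was compared. The values deposited by the authors are linear intensities from MAS5, per the submitters' processing notes. The MAS5 version and settings were not given in the sources used here. Of 45101 probe sets, 64 AFFX controls were left out. Values were taken as log2(signal + 16). The top 60% by mean log2 value, 27022 probe sets, were tested with limma 3.58.1 in R 4.3.3 (lmFit, eBayes with a variance trend), 2-sided, with 4 residual degrees of freedom, and called where the p after Benjamini-Hochberg adjustment was under 0.05. The 2% trimmed mean was 500.003 on every array, so no further scaling was applied. Precision is limited by the number of arrays, and TrpnX bacterial control signals ran between 1.1 and 32.3.

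Symbols came from the platform annotation, with 34945 probe sets holding a single symbol and 10092 with several or none. The members, the lists, the tests and the alternatives were chosen with earlier results of these data known. All 40 members are named, with the called genes among the up to 4 of smallest p in each related list, and 1 more called tubulin list gene added after its values were seen. Same-numbered arrays did not deviate together (r = -0.03, -0.07 and 0.03), so the main fit did not pair them. The labels do not say whether same-numbered arrays were handled together. Promoters were read from RefSeq's table (GRCm38.p6). Figures used matplotlib 3.10.9 in Python 3.11.15. Alternatives changed the pseudocount, scaling, filter, variance model, probe set rule, block or covariate, or left out an array.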

Additional observations from a re-analysis of the deposited data

How the results depend on the processing

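The number of members that rose was 14. It became 9 with no filter (of 40 tested), 8 with a top 40% filter (of 13 tested) and 5 without the variance trend. It was 9 with probe sets averaged and 5 with the acinar covariate. Some settings kept all 14 and added others. Quantile normalization added Smc2 and Ncapd2, and centring each array on its median added Kif22, Smc2 and Ncapd2. A pseudocount of 64 added Ncapg. Leaving out 1 array gave 7 to 13 members that rose, a median of 0.58 to 0.74 and 1482 to 2259 calls over the whole table. The lowest count, 7, came when pregnant replicate 2 was left out, and the count was 9 when pregnant replicate 3 was. No member fell under any setting in limma. With the replicate number as a block, 12 rose. The median log2 difference of 0.64 became 0.47 with a pseudocount of 64 and 0.49 with probe sets averaged. Calls over all probe sets numbered 2587, with 1294 higher and 1293 lower. There were 603 calls without the trend (393 higher, 210 lower), 1044 of genes with probe sets averaged and 527 with the acinar covariate (354 higher, 173 lower), and median centring gave 1430 higher and 583 lower. None of the 14 changed sign. Of the 14, 7 passed in each of the 6 fits with an array left out: Ect2, Racgap1, Tpx2, Nusap1, Hmmr, Ncapg2 and Top2a.

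Signs turned in genes that did not pass, and in Pds5b (0.00353) and Tuba4a (-0.10) with probe sets averaged. Kif11 was 0.0578 after quantile normalization, 0.0648 after median centring and 0.60 with probe sets averaged. Ncaph2 was 0.0173 after quantile normalization and 0.0746 after median centring. Probe sets averaged gave 0.20 for Cit and 0.24 for Ncapd3, and the acinar covariate gave -0.19 for Ckap5. With 1 array left out, the differences ran between -0.0690 and 0.0765 for Kif11, -0.0617 and 0.46 for Kif20b, -0.33 and 0.33 for Kif2c, -0.0108 and 0.0751 for Numa1, and -0.0258 and 0.0456 for Ncaph2. The causes were not tested. Of the 40 members, 6 were too dim to be tested.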
